A study of Mus musculus with 6 samples.

Results

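The genes described are the subunits of the proteasome with its regulators, the 44 of 17556 listed genes whose symbol is Psm, then a letter from a to f, then a number. They were measured by bulk RNAseq in left ventricles of mice of 6 to 10 weeks, collected at 4 days post injury (dpi) after permanent ligation of the left anterior descending artery, which produces a myocardial infarction (MI). All 6 mice were siblings whose Yap was floxed on both alleles and whose Wwtr1 was floxed on one, and all were fed a tamoxifen citrate diet from the time of surgery. The 3 mice labelled Cre-positive also carried MerCreMer, a tamoxifen-inducible Cre, at the endogenous periostin promoter, which is active in myofibroblasts. The 3 mice labelled Cre-negative had wildtype Periostin. No uninjured heart and no heart without tamoxifen is among these samples, so levels before MI were not analysed here. The labels do not say whether the mice came from separate litters, and RNA came from the whole left ventricle, so the recombined cells are one fraction of each sample.

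The proteasome degrades proteins that carry ubiquitin chains. Its 20S core is a stack of rings of alpha and beta subunits, and the peptide bonds are cut by the beta subunits Psmb5, Psmb6 and Psmb7. Interferon gamma, and other inflammatory signals, induce Psmb8, Psmb9 and Psmb10, which replace Psmb5, Psmb6 and Psmb7 respectively in newly built cores and so form the immunoproteasome, a form abundant in leukocytes that supplies peptides for MHC class I. Psme1 and Psme2 form PA28, an interferon-inducible cap, whereas the 19S cap (Psmc ATPases and Psmd subunits) recognises and unfolds ubiquitinated proteins. The comparison asked whether these genes, and the 5 inducible ones (Psmb8, Psmb9, Psmb10, Psme1 and Psme2) in particular, differed between genotypes at 4 dpi.

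The ventricles held 13177888 to 14827579 estimated counts. In the test of all 13817 genes with enough counts, edgeR's quasi-likelihood test with Benjamini-Hochberg adjustment at 0.05, 1 gene was called, which is 0.00724% of the genes tested, and it was not a proteasome gene. Of the proteasome genes, 43 were tested and 0 were called. At an unadjusted p under 0.05 the test held 5.83% of all genes and 0 of the 43. DESeq2's Wald test and limma on TPM called 0 of them as well. Adjusted p-values of the 43 genes in edgeR's test ran from 0.714 to 0.994. Yap1 had 44.2, 46.3 and 44.4 TPM (transcript abundance corrected for transcript length and scaled to the whole library) in Cre-negative and 50.7, 49.0 and 48.9 in Cre-positive ventricles, and Wwtr1 had 39.3, 39.6 and 43.6 against 43.9, 45.8 and 47.4. On normalized counts the genotypes overlapped for both, with log2 fold changes of 0.03 (SE 0.09) for Yap1 and 0.05 (SE 0.08) for Wwtr1. Neither targeted gene was therefore lower in the ventricles labelled Cre-positive, and whole-gene counts of a whole ventricle do not check recombination in myofibroblasts. Postn, whose locus holds MerCreMer, had 452, 1015 and 1112 TPM in Cre-negative and 526, 636 and 586 TPM in Cre-positive ventricles (log2 fold change −0.66, SE 0.27, adjusted p = 0.714 in edgeR's test), with Cre-negative replicate 1 below all 3 Cre-positive ventricles.

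Nearly all proteasome genes were well expressed in the infarcted ventricle. The constitutive genes, the 37 that are neither inducible nor restricted to testis or thymus, had mean levels over the 6 ventricles from 15.8 TPM for Psmd10 to 272 TPM for Psmb3. The 7 constitutive genes of the beta rings were among the highest. The structural beta genes ranged from 231 TPM (Psmb1) to 272 TPM (Psmb3) and the constitutive catalytic genes from 224.5 TPM (Psmb5) to 242.5 TPM (Psmb7). The ventricles of these 3 catalytic genes overlapped, with Psmb5 below Psmb7 in each of the 6. The 7 genes of the alpha ring, which gates the entry of substrates, ranged from 85.8 TPM (Psma5) to 171 TPM (Psma7). The 6 ATPases of the 19S base ranged from 81.7 TPM (Psmc6) to 178 TPM (Psmc3), and the 11 non-ATPase 19S genes from 56.9 TPM for Psmd14, the deubiquitinase that removes ubiquitin chains, to 235 TPM for Psmd8. The chaperones that assemble the 19S base and leave it again were far lower, at 15.8 TPM (Psmd10), 17.5 TPM (Psmd9) and 24.6 TPM (Psmd5). The 3 inducible catalytic genes had means of 37.2 TPM for Psmb9, 54.2 TPM for Psmb8 and 89.8 TPM for Psmb10. Each was below its constitutive partner in every ventricle. In contrast, the PA28 genes Psme1 (215 TPM) and Psme2 (134 TPM) stood at the level of core subunits.

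**Figure D1:**
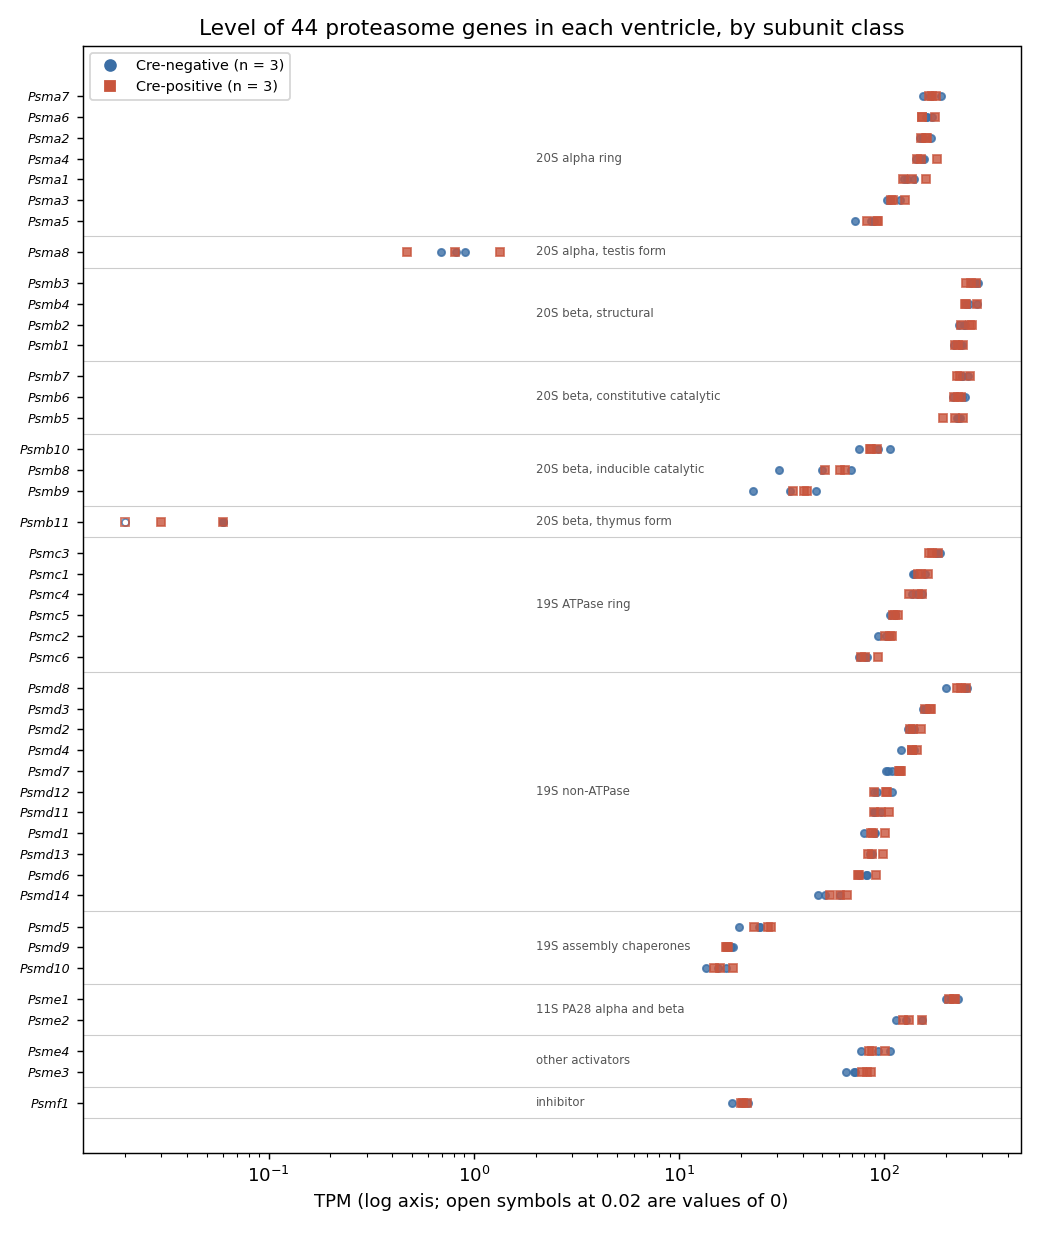
TPM (log axis) of the 44 proteasome genes in each of the 6 ventricles, by subunit class and, within a class, in order of the mean; circles are Cre-negative and squares Cre-positive ventricles. Psmb8, Psmb9 and Psmb10 lie below Psmb5, Psmb6 and Psmb7, and Psma8 and Psmb11 lie at or near 0.

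A pair of tissue-restricted subunits served as a check of the tissue. Psma8, the alpha subunit of spermatogenic cells, had 11, 10 and 9 counts in the Cre-negative and 6, 17 and 10 counts in the Cre-positive ventricles, a mean of 0.84 TPM. Psmb11, the catalytic subunit of cortical thymic epithelium, had 2, 2 and 0 counts against 1, 0 and 2 counts and was not tested. Both were thus at or near the level of a few reads in the ventricle, in either genotype. For Psma8 the 95% interval of the log2 fold change ran from −1.04 to 1.08, so a difference within that range was not excluded.

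Psmb8 encodes the inducible partner of Psmb5. It had 30.6, 69.0 and 49.7 TPM in Cre-negative replicates 1 to 3 and 51.2, 64.1 and 60.6 TPM in Cre-positive replicates 1 to 3. The Cre-negative ventricles held both the lowest and the highest value, and the Cre-positive range lay within theirs. The log2 fold change was 0.13 (SE 0.23, 95% interval −0.40 to 0.66, adjusted p = 0.874 in edgeR's test). Psmb9, which takes the place of Psmb6, had 22.8, 46.6 and 34.9 TPM in Cre-negative and 42.2, 40.5 and 36.0 TPM in Cre-positive ventricles. Its order in the Cre-negative ventricles was that of Psmb8, with replicate 1 lowest and replicate 2 highest of all 6. The log2 fold change of Psmb9 was 0.08 (SE 0.21, 95% interval −0.41 to 0.57, adjusted p = 0.920 in edgeR's test). Psmb10, which replaces Psmb7, had 75.6, 106 and 93.2 TPM against 85.9, 92.2 and 85.4 TPM. Here too the Cre-positive TPM lay inside the Cre-negative range, while on normalized counts Cre-positive replicates 2 and 3 lay below it, with a log2 fold change of −0.18 (SE 0.10, 95% interval −0.41 to 0.05, adjusted p = 0.714 in edgeR's test).

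The result for Psmb8 and Psmb9 turned on a single ventricle. Without Cre-negative replicate 1 their log2 fold changes were −0.09 and −0.11, and leaving out Cre-negative replicate 2 gave 0.41 and 0.32. On log2 (TPM + 1), with all 6 ventricles, they were 0.30 and 0.24, on a scale where the median of all tested genes was 0.11. For Psmb10, leaving out Cre-negative replicate 1 gave −0.25, with an unadjusted p below 0.05 and an adjusted p of 0.729 in edgeR's test. Neither direction was therefore established for Psmb8 and Psmb9, and no inducible gene passed the adjusted threshold with any ventricle left out.

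**Figure D2:**
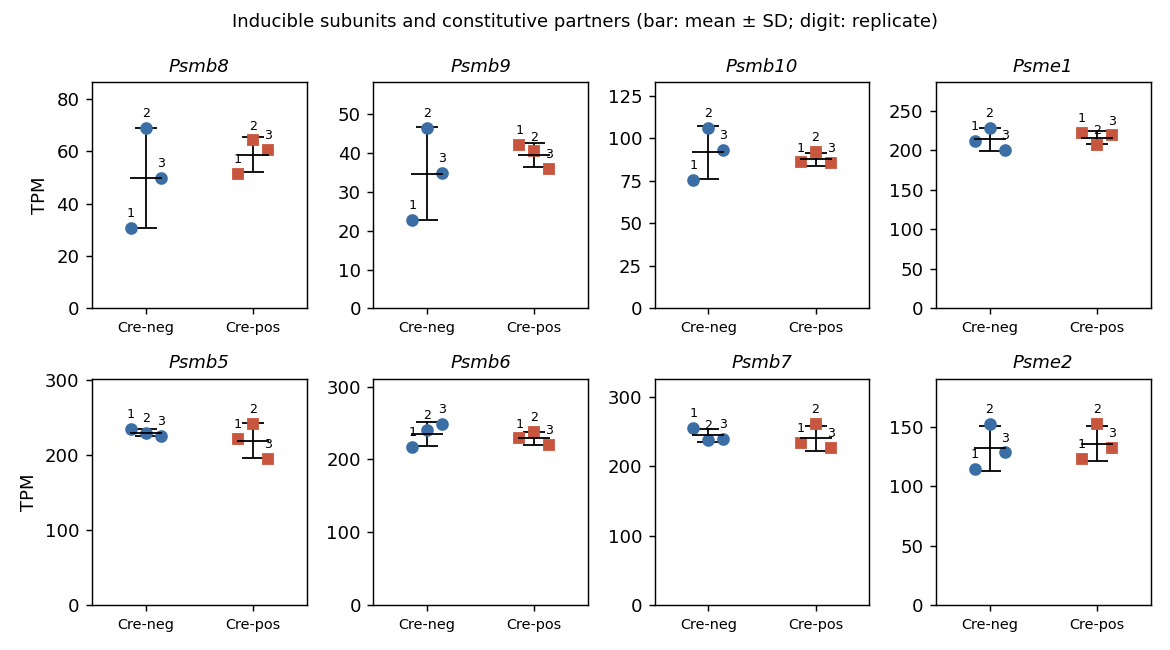
TPM of the 5 inducible genes and of the constitutive partners Psmb5, Psmb6 and Psmb7 in each ventricle (axes start at 0); the bars are the mean and SD of 3 ventricles and the digits the replicate numbers. Cre-negative replicates 1 and 2 enclose all Cre-positive ventricles for Psmb8, Psmb9 and Psmb10.

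The constitutive partners Psmb5, Psmb6 and Psmb7 had CVs of normalized counts (SD over mean of the 6 ventricles) of 11.1%, 6.69% and 10.1%. Psmb5 had 234, 230 and 225 TPM in Cre-negative and 222, 241 and 194 TPM in Cre-positive ventricles. Psmb6 had 217, 241 and 249 TPM against 229, 238 and 220 TPM. Psmb7 had 256, 238 and 239 TPM against 233, 261 and 227 TPM. On the TPM scale the genotypes overlapped for all 3. On TMM-normalized counts their log2 fold changes were −0.20 (SE 0.11), −0.16 (SE 0.08) and −0.15 (SE 0.11), each with an adjusted p of 0.714 or more in edgeR's test.

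Set against its partner within each ventricle, Psmb8 was 0.131, 0.300 and 0.221 of Psmb5 in Cre-negative and 0.231, 0.265 and 0.312 of Psmb5 in Cre-positive ventricles. The share of all catalytic transcripts (summed TPM of the 6 catalytic genes) that came from Psmb8, Psmb9 and Psmb10 was 15.4%, 23.9% and 19.96% in Cre-negative and 20.8%, 21.0% and 22.1% in Cre-positive ventricles. The means were 19.8% ± 4.22 (SD, n = 3) and 21.3% ± 0.715 (SD, n = 3), and the Cre-positive values lay within the Cre-negative range. Psmb9 over Psmb6 ranged from 0.105 to 0.194 and Psmb10 over Psmb7 from 0.295 to 0.447, both with the lowest and the highest value in Cre-negative replicates 1 and 2. These ratios are descriptions and were given no test.

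The PA28 genes differed less between ventricles. Psme1 had 212, 229 and 201 TPM in Cre-negative and 222, 206 and 219 TPM in Cre-positive ventricles. Psme2 had 114, 152 and 128 TPM against 123, 152 and 132 TPM. The genotypes overlapped for both genes, with log2 fold changes of −0.11 (SE 0.10) and −0.07 (SE 0.10) on normalized counts, adjusted p = 0.759 and 0.832 in edgeR's test. Psme2 has a near-identical retrogene, Psme2b (means of 2.30 and 2.73 TPM), and all 6 of its estimated counts were not whole, so reads were shared out in the estimate and the level of Psme2 carries that uncertainty. Of all 264 member values 12 were not whole.

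Psmb8 and Psmb9 varied more between ventricles than any of the constitutive genes. The coefficient of variation (CV) of normalized counts over the 6 ventricles was 21.9% for Psmb8, 19.3% for Psmb9 and 10.2% for Psmb10, and 8.48% and 8.62% for Psme1 and Psme2. The median over the 37 constitutive genes was 6.37%, from 2.31% for Psmd4, a ubiquitin receptor, to 17.7% for Psme4. Over all tested genes the median was 13.3%, and over those with a mean of 200 or more normalized counts it was 10.4%. Counting error alone gives 4.57% for Psmb8 and 6.80% for Psmb9. Some steadier genes were above counting error as well, such as Psma1 (7.76% against 2.83%), and others were not, such as Psmd4 (2.31% against 2.74%), so that comparison does not set Psmb8 and Psmb9 apart. Of the constitutive genes, 36 of the 37 varied less than the median of all genes.

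Which ventricles were lowest or highest depended in part on the scale. Cre-negative replicate 1 had the lowest TPM for 4 of the 5 inducible genes and the lowest normalized count for 2, Psmb8 and Psmb9. Cre-negative replicate 2 was highest for 5 of the 5 in TPM and for 4 in normalized counts. For the 37 constitutive genes, Cre-negative replicate 1 was lowest for 21 and Cre-positive replicate 2 highest for 23 in TPM. In normalized counts the first turned around, Cre-negative replicate 1 being lowest for 2 and highest for 18. Cre-positive replicate 2 was highest for 5 and Cre-positive replicate 3 was lowest for 24. Relative to the mean of the 6 ventricles, Psmb8 and Psmb9 stood at −0.82 and −0.70 (log2 TPM) in Cre-negative replicate 1, and the median constitutive gene at −0.08.

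The MHC class I peptide pathway, the genes that load the peptides the immunoproteasome makes, had the extreme ventricles of Psmb8 and Psmb9. Of its 10 genes, 9 were lowest in Cre-negative replicate 1 and 6 highest in Cre-negative replicate 2 in TPM, and 8 and 7 in normalized counts. Tap1, the peptide transporter subunit, had 20.02, 48.2 and 27.7 TPM in Cre-negative and 31.6, 37.2 and 32.8 TPM in Cre-positive ventricles (log2 fold change −0.02, SE 0.26). Nlrc5, a transactivator of MHC class I genes, had 2.12, 3.90 and 2.60 TPM against 3.45, 4.14 and 3.61 TPM, and Irf1 had 22.7, 30.3 and 29.3 TPM against 29.9, 30.8 and 32.4 TPM. Ifng itself was listed at 0 in 5 ventricles and at 0.11 TPM in 1.

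Markers of cell types set Cre-negative replicate 1 apart as well. The 15 leukocyte markers summed to 2073 TPM in Cre-negative replicate 1 and to 3032 to 3513 TPM in the other 5 ventricles, and 11 of the 15 (10 in normalized counts) were lowest in Cre-negative replicate 1. In Cre-negative replicate 2, where all 5 inducible genes had their highest TPM, 1 of the 15 was highest, and the leukocyte sum was highest in Cre-negative replicate 3. Of the 8 cardiomyocyte markers, 6 (7 in normalized counts) were highest in Cre-negative replicate 1, with a sum of 63748 TPM against 48239 to 54465 TPM elsewhere. The 8 cardiomyocyte markers all had log2 fold changes below 0 in Cre-positive ventricles, with a median of −0.33. Of these only Myl2 and Myl3 had an unadjusted p under 0.05, and the lowest adjusted p of the list in edgeR's test was 0.714. Above 0 were 12 of 15 leukocyte, 6 of 7 fibroblast and 5 of 6 endothelial markers (medians of 0.15, 0.12 and 0.05). Among the 5 tested neutrophil markers 1 was above 0 (median −0.90). The 6 neutrophil markers summed to 415 TPM in Cre-negative replicate 1 and to 48.4 to 156 TPM elsewhere, 5 of the 6 being highest there, and Ly6g was listed at 0 in 4 ventricles. Of the 7 fibroblast markers 5 were lowest in Cre-negative replicate 1 on both scales, and of the 6 endothelial markers 5 in TPM and 2 in normalized counts. The part of these cell type differences in the levels of Psmb8 and Psmb9 was not tested. In bulk tissue, fewer cells of a type and less RNA per cell cannot be told apart.

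**Figure D3:**
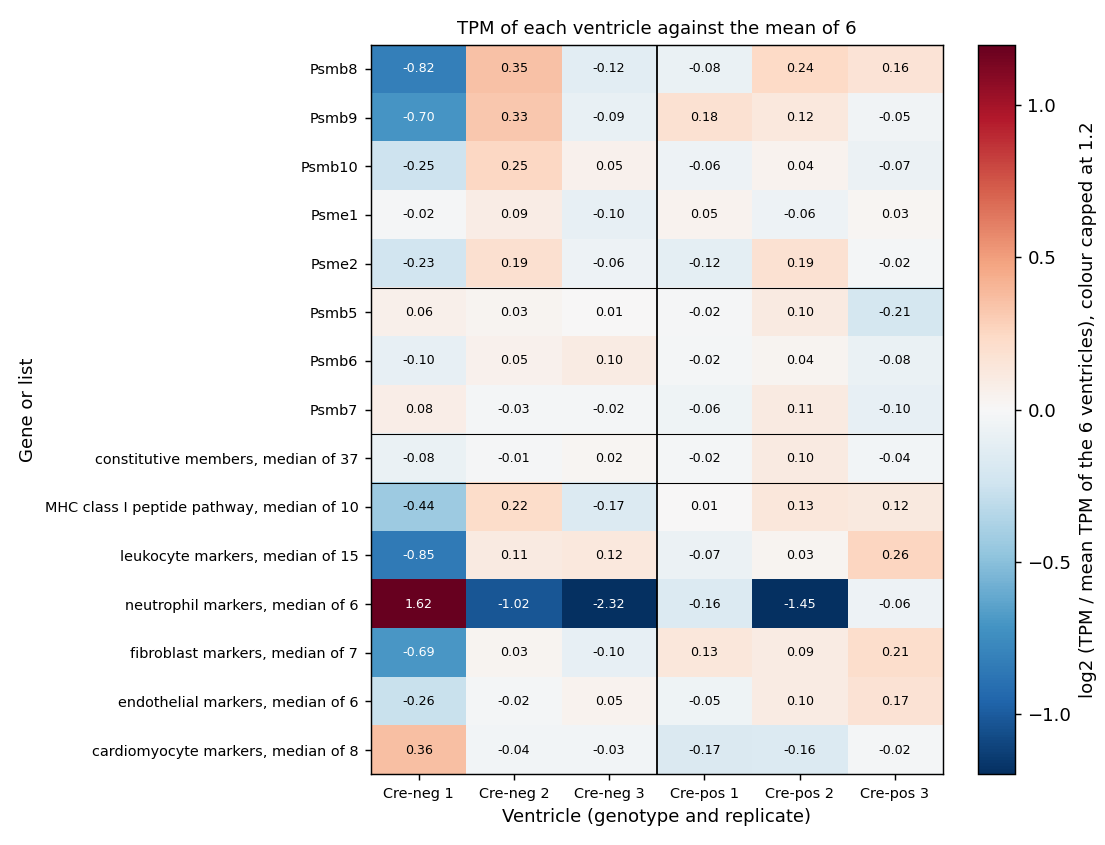
log2 TPM of each ventricle relative to the mean of the 6 for the inducible genes, their partners, and the median gene of the constitutive, MHC class I and cell type lists (number of genes in each label; colour capped at 1.2). In Cre-negative replicate 1 Psmb8 and Psmb9 stand at −0.82 and −0.70, leukocyte markers at −0.85 and cardiomyocyte markers at 0.36. In the same ventricle fibroblast markers stand at −0.69, MHC class I genes at −0.44, endothelial markers at −0.26 and neutrophil markers at 1.62.

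Positions in the genome group some of these genes. On GRCm38.p6 Psmb9 (chr17:34182030-34187330, minus strand) and Tap1 have opposite strands, with 225 bases between their starts, and Psmb8 (chr17:34198195-34201454, plus strand) starts 969 bases beyond the end of Tap1, all in the MHC. Psme1 and Psme2 lie close together on chromosome 14, with 5912 bases between their ends. Psmb5, on the same chromosome, has 7314 bases between its start and that of Psmb11. The 44 genes lie on 16 chromosomes.

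Promoter windows from RefSeq on GRCm38.p6, 250 bases before the start to 50 after it, were in the table for 37 of the 44 genes. They were searched on both strands for the letters of 4 motifs. The core of the interferon-stimulated response element was taken as GAAA, any 2 bases, then GAAA, the gamma-activated site as TTCNNNGAA (the same on both strands), the antioxidant response element core bound by Nfe2l1 and Nfe2l2 as TGANNNNGC, and the CCAAT box as CCAAT. No 2 matches overlapped in the windows printed here. The windows of both inducible genes beside Tap1, of Psme1 and of Psmb5 as a constitutive partner are shown 5′ to 3′ on the strand of the gene, with matches in capitals. Those of Psmb9 (chr17:34187281-34187580, minus strand), Psmb8 (chr17:34197945-34198244, plus strand), Psme1 (chr14:55578244-55578543, plus strand) and Psmb5 (chr14:54617946-54618245, minus strand) read:
Psmb9: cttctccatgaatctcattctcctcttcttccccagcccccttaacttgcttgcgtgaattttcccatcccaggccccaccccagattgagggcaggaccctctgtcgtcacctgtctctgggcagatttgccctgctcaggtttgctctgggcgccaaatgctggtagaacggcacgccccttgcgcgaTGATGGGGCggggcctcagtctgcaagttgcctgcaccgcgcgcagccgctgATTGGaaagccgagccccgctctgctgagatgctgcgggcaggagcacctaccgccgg
Psmb8: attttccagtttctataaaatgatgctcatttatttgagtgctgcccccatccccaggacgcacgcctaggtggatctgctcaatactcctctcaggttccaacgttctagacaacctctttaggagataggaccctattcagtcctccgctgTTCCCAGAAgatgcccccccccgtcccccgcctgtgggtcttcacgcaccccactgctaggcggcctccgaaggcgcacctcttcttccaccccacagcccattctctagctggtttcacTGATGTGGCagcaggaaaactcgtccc
Psme1: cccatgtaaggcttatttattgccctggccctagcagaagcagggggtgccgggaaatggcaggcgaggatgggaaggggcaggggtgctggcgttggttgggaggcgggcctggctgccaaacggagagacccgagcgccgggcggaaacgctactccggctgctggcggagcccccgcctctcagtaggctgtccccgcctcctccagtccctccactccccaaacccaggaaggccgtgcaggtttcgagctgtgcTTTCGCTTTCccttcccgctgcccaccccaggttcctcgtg
Psmb5: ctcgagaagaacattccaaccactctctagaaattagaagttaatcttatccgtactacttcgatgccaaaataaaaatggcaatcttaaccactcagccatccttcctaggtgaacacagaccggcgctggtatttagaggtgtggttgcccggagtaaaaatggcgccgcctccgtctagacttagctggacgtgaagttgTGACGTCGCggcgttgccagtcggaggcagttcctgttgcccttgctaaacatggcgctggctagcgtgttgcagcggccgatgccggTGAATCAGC

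In the Psmb8 window the gamma-activated site letters begin 97 bases before the start. In Psme1 the interferon element letters lie on the opposite strand and begin at base 10 of the transcript. Psmb5 has the antioxidant element letters at 2 places, from 47 bases before the start and from base 42 of the transcript, Psmb9 has them from 60 bases before the start, together with a CCAAT box on the opposite strand, and Psmb8 has them from base 24 of the transcript. The window of Psmb9 shares 275 bases with that of Tap1, read on the other strand. Among the 37 genes, the interferon element letters were found in 4 (10.8%; Psmb3, Psmd4, Psmd9 and Psme1) against 3.99% of all 27025 genes in the table, and the gamma-activated site in 2 (5.41%; Psmb8 and Psmd2) against 9.55%. The antioxidant element letters were found in 21 (56.8%) against 45.0% and CCAAT in 14 (37.8%) against 41.1%. Such matches describe the letters of the window only.

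The constitutive genes had small log2 fold changes, mostly of one sign on normalized counts. Of the 37, 33 were below 0 and 4 above, with a median of −0.07; of the 5 inducible genes 3 were below 0 and 2 above, also with a median of −0.07. Over all 43 tested members 36 were below 0, where 48.8% of all tested genes were. On the TPM scale, by contrast, only 11 of the 43 were below 0, and the median of all tested genes was 0.11 there and 0.01 on normalized counts. Relative to that median, 36 of the 43 were lower on either scale, by a median of 0.08 on normalized counts and 0.06 on log2 (TPM + 1). On normalized counts this shift was −0.08 with all ventricles, −0.04 without Cre-positive replicate 3 (31 of 43 lower) and −0.05 without Cre-negative replicate 1 (32 of 43 lower, and 27 of the 37 constitutive genes). Leaving out any other single ventricle enlarged it to −0.10, with 35 to 37 of the 43 lower. The direction of the class is thus relative to the other genes in the libraries and does not hold as an absolute direction. Members share regulators and are not replicates, and no p-value is given for the class.

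By class, the median log2 fold change on normalized counts was −0.05 for the alpha ring (7 of 7 below 0), −0.13 for the structural beta genes (4 of 4), −0.16 for the constitutive catalytic genes (3 of 3), −0.07 for the 19S ATPases (6 of 6) and −0.07 for the 19S non-ATPases (9 of 11). For the inducible catalytic genes it was 0.08, with 2 of 3 above 0. The largest negative values were those of Psmc3 (−0.20, SE 0.09), Psmb5 (−0.20, SE 0.11) and Psmb3 (−0.19, SE 0.10), each with an adjusted p of 0.714 in edgeR's test. The largest positive values were those of Psmb8, of Psme3 and of Psmd5 (0.09, SE 0.10).

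**Figure D4:**
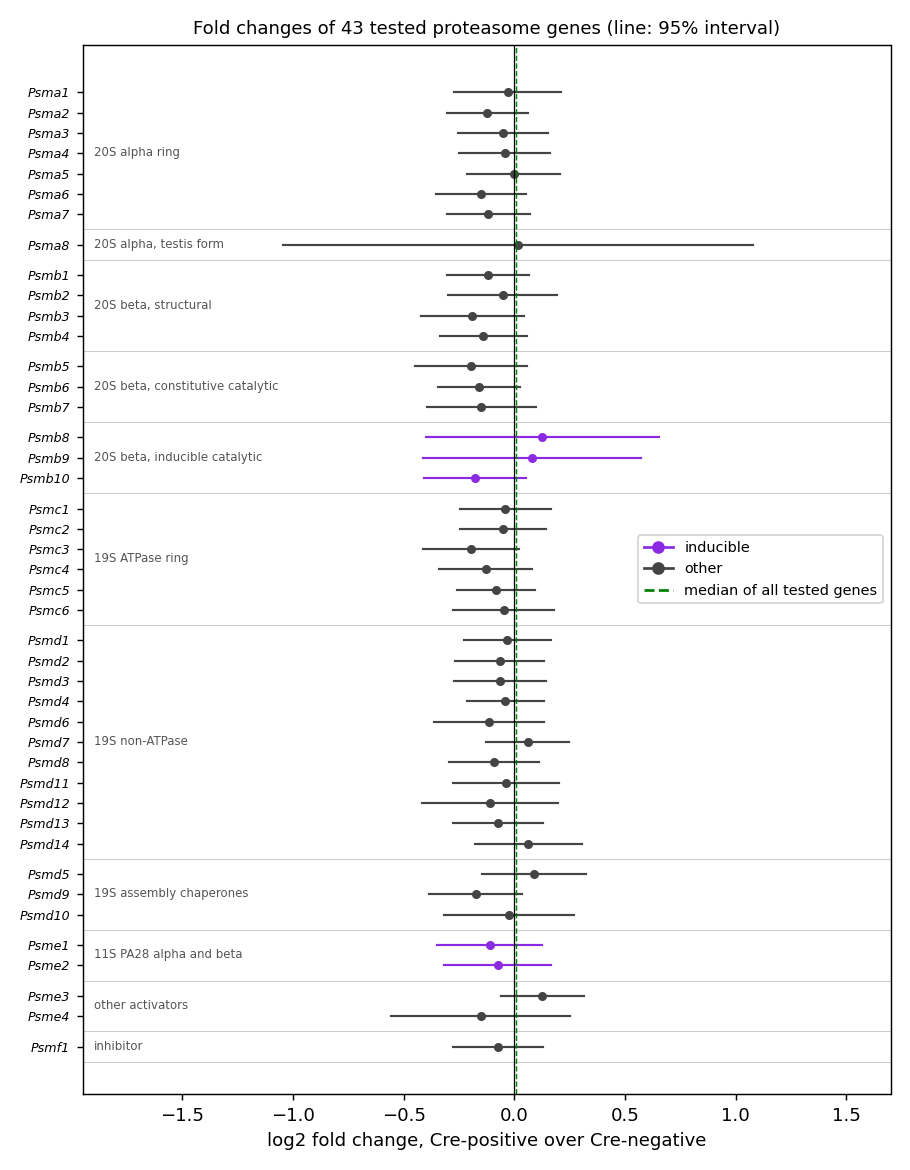
log2 fold change of Cre-positive over Cre-negative ventricles (n = 3 each) for the 43 tested proteasome genes, with 95% intervals from edgeR's quasi-likelihood fit; the dashed line is the median of all tested genes. All 43 intervals include 0, and 36 of the points lie below it.

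Normalized counts of the genotypes did not overlap, with Cre-positive lower, for 10 of the 43 genes (Psma2, Psma7, Psmb1, Psmb3, Psmb4, Psmb5, Psmb6, Psmc3, Psmc5 and Psmd9), where 6.85% of all tested genes did so. Cre-positive was higher without overlap for 1 gene, Psme3, where 7.55% of all genes were. On the TPM scale 0 of the 43 were lower without overlap (2.44% of all genes), and 2 did not overlap in either direction (17.4% of all genes), Psmd7 and Psme3, both with Cre-positive higher. None of the 10 kept its separation on the TPM scale. Psme3 alone did not overlap on both scales.

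Psme3 encodes PA28 gamma, a nuclear cap that interferon gamma does not induce. It had 65.3, 72.4 and 71.2 TPM in Cre-negative and 82.4, 86.2 and 77.8 TPM in Cre-positive ventricles. All 3 Cre-positive ventricles were above all 3 Cre-negative ones. The log2 fold change was 0.13 on normalized counts (SE 0.08, 95% interval −0.06 to 0.31, adjusted p = 0.714 in edgeR's test). On log2 (TPM + 1) it was 0.24, with an unadjusted p under 0.05 in limma that did not hold after adjustment. Psmd7, a 19S lid subunit that pairs with Psmd14, had 102, 109 and 105 TPM against 119, 121 and 118 TPM, and a log2 fold change of 0.06 (SE 0.08) on normalized counts, where its genotypes overlapped. On log2 (TPM + 1) Psmd7 too had an unadjusted p under 0.05 in limma that did not hold after adjustment. With a pseudocount of 0.1, or with genes of a mean of at least 1 TPM, Psme3 stayed under 0.05 unadjusted in limma and Psmd7 did not. Psme4 encodes PA200, a nuclear cap linked to histone degradation. It had 107, 77.5 and 92.9 TPM against 101, 84.8 and 86.9 TPM, so that the genotypes overlapped, and its CV of 17.7% was the highest of the constitutive genes. Psmf1, an inhibitor of the core, had 18.2, 21.7 and 20.3 TPM against 20.6, 21.4 and 20.1 TPM.

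For genes that act on the proteasome but fall outside the symbol rule, 16 symbols were searched, some of them other names of the same gene. They found 11 chaperones and accessory factors. All 11 were tested and 0 were called, with a median log2 fold change of −0.08. Pomp, the chaperone of core assembly, had 207, 202 and 213 TPM against 187, 228 and 193 TPM. Of 5 genes of the Nfe2l1 pathway, which raises proteasome transcription when degradation is impaired, 0 were called. Nfe2l1 had 181, 172 and 156 TPM against 176, 173 and 165 TPM. Ddi2, the protease that cleaves Nfe2l1 into its active form, had 9.22, 11.3 and 10.97 TPM in Cre-negative and 14.1, 13.9 and 14.3 TPM in Cre-positive ventricles, with no overlap. Its log2 fold change was 0.31 (SE 0.10). Its unadjusted p was under 0.05 but its adjusted p in edgeR's test was 0.714, so it did not pass. Of 10 ubiquitin genes and shuttles 0 were called (7 below 0), of 10 MHC class I genes 0 (4 below 0) and of 11 tested interferon gamma genes 0 (2 below 0).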

How the data were processed

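Left ventricles of 3 Cre-positive and 3 Cre-negative siblings were profiled by bulk RNAseq. RNA was extracted in TRIzol and libraries were made by BGI Americas. The submitters' processing notes name Bowtie2 2.2.5, RSEM 1.2.12 and the build GRCm38.p6; the annotation is not given in the sources used here. The authors deposited, per gene and ventricle, an estimated count (not normalized), an FPKM value and a TPM value, both scaled to length and depth; FPKM was not used. Columns with a comparison of the genotypes (fold changes and p-values) were also deposited by the authors and were not used.

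Estimated counts were rounded and tested in R 4.3.3 with edgeR 4.0.16 (quasi-likelihood, TMM scaling, genes kept by filterByExpr at the equivalent of 10 counts in at least 3 libraries and 15 in all), Cre-positive over Cre-negative, with Benjamini-Hochberg adjustment at 0.05 over all 13817 genes tested. Levels of genes were compared by the deposited TPM. SD and CV are over ventricles, and no covariate was used. The labels give no separate litters, so p-values measure the spread between these mice. Alternatives were DESeq2 1.42.0 (Wald test and size factors), limma 3.58.1 on log2 TPM with a pseudocount of 1 or 0.1, no filter, a mean of at least 50 counts or 1 TPM, the replicate number as a block, and each ventricle left out. On simulated counts, edgeR called 73 of 100 genes changed 2-fold and 95 of 100 changed 4-fold. Genes named in the text are the inducible genes and partners, the activators, inhibitor and tissue-restricted forms, the highest and lowest of each class, the 3 largest fold changes in each direction, members without overlap, and related genes with an unadjusted p under 0.05 or fixed by name (one of which is not reported here); Psmd7, Psmd4 and the genes without overlap were named after their values were seen. Members and lists were chosen with earlier results of these data known. Promoters and positions are from RefSeq on GRCm38.p6. Figures were drawn with matplotlib 3.10.9 in Python 3.11.15.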

Additional observations from a re-analysis of the deposited data

How the results depend on the processing

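No proteasome gene was called under any of the 14 alternatives run. The count of all genes called was 1, and it became 5 with DESeq2's Wald test, 2 with limma on log2 TPM with a pseudocount of 1 and of 0.1, and 0 with the replicate block (1217 genes at an unadjusted p under 0.05). The cause was not tested. Same-numbered ventricles correlated in their deviations from the group means by 0.354, 0.0726 and −0.0318, so the numbers were not taken to pair the mice, and not every ventricle correlated best with its own number. Leaving out single ventricles gave 0 to 2 genes called, medians of −0.118 to 0.016 for inducible and −0.103 to −0.043 for constitutive genes, and a Cre-positive minus Cre-negative difference in the inducible share of catalytic transcripts of −0.615 to 3.6 percentage points.

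On log2 TPM the constitutive median turned to 0.047 with a pseudocount of 1 (also with a mean of at least 1 TPM) and 0.049 with 0.1, where the median of all genes moved too. The inducible median turned as well, to 0.048 and 0.049 in the same settings, with 1 of the 5 genes below 0. Of the members, 25 changed sign there. Among those whose values were followed in every alternative these were, with pseudocounts of 1 and 0.1 respectively (with 1, a mean of at least 1 TPM gave the same value), Psma5 (0.115 and 0.116), Psma7 (0.0113 and 0.0114), Psmb1 (0.00347 and 0.00349), Psmc6 (0.0715 and 0.0722), Psmd8 (0.0323 and 0.0324), Psmd10 (0.089 and 0.0941), Psme1 (0.0131 and 0.0132), Psme2 (0.0484 and 0.0488) and Psmf1 (0.0466 and 0.0487). Psma8 was −0.0247 with the replicate block and −0.000316 with DESeq2. With a ventricle left out, the range of log2 fold changes crossed 0 for Psma5 (−0.0596 to 0.0526), Psma8 (−0.399 to 0.288), Psmb8 (−0.0931 to 0.41), Psmb9 (−0.112 to 0.317), Psmc6 (−0.108 to 0.0105), Psmd10 (−0.0934 to 0.025), Psme2 (−0.136 to 0.0155) and Psme4 (−0.286 to 0.0275). Intervals and limits cover these 6 mice, and Psma8 and Psmb11 are limited by depth.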
